A study of Mus musculus with 6 samples.

Results

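The respiratory chain passes electrons from NADH and succinate to oxygen through complexes I to IV of the inner mitochondrial membrane, and the proton gradient this builds drives complex V, the ATP synthase. Complex I oxidises NADH, complex II oxidises succinate, complex III passes electrons from ubiquinol to cytochrome c, complex IV reduces oxygen, and complex V makes ATP. Most of their subunits are encoded in the nucleus, translated in the cytosol and imported, and a smaller set is encoded in mitochondrial DNA. Endothelial cells, which line blood vessels, are known for drawing much of their ATP from glycolysis.

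The nuclear-encoded subunits were taken from the deposited count table by symbol: every gene starting with Nduf, Uqcr, Cox4 to Cox8 or Atp5, plus Sdha, Sdhb, Sdhc and Sdhd. This gave 90 genes of the 23337 in the table, spread over 19 chromosomes. By their known roles, 82 of them were subunits: 36 of complex I, 4 of complex II, 8 of complex III, 19 of complex IV and 15 of complex V, with Ndufa4 and its paralog Ndufa4l2 counted in complex IV. The other 8 were 6 assembly factors (Ndufaf1, Ndufaf2, Ndufaf3, Ndufaf4, Atp5sl and Cox7a2l) and 2 genes counted neither as subunits nor as assembly factors. Those 2 are Cox4nb, a part of the endoplasmic reticulum membrane complex also called Emc8, and Atp5s, also called Dmac2l. A minimum of 10 counts in 3 libraries kept 84 of the 90 genes and 76 of the 82 subunits. The mitochondrially encoded subunits were not analysed here.

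RNA was sequenced from mouse liver sinusoidal endothelial cells, the porous lining of the hepatic capillaries, taken as primary cells, isolated with antibody-coated magnetic beads, plated on collagen IV and deprived of serum. Stretch libraries (replicates 1, 2 and 4) came from cells given 4% cyclic stretch (1 Hz) on plates with a flexible floor. Control libraries (replicates 2, 3 and 4) came from unstretched cells kept in the same way. Strain, age and sex of the mice and the length of the stretch were not stated in the labels, and no label says that libraries came from separate cultures or animals, so p-values measure only the spread between these libraries.

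Total counts lay between 58503669 and 68489956 in stretch libraries and between 48948948 and 57923937 in control libraries. Summed markers of sinusoidal endothelium, among them Stab2 and Lyve1, lay between 5814 and 6755 CPM (counts scaled to library depth) in stretch libraries and between 7964 and 9066 CPM in control libraries, with 8 of 10 called lower. Lyve1 was the 1 marker of the 10 with a log2 fold change above 0. It had 1022 CPM in stretch and 930.8 CPM in control libraries and was not called (log2 fold change 0.13, adjusted p = 0.17). Summed hepatocyte markers reached 501.3 CPM in stretch replicate 1, with 96.8 to 98.0 CPM in the other stretch libraries and 32.9 to 72.8 CPM in control libraries, and 10 of 12 were called higher by edgeR and 0 by limma-voom. General endothelial markers summed to 5924 to 6560 CPM in stretch libraries and 5898 to 6663 CPM in control libraries, with 3 of 5 called lower. Of all genes tested, 44.0% were called, 21.4% higher and 22.6% lower. Of those averaging 4 log2 CPM or more, 57.7% were called. Macrophage markers summed to 110.0 to 146.6 CPM in stretch libraries and 78.0 to 92.5 CPM in control libraries, with 7 of 8 tested called higher. Cholangiocyte markers summed to 141.1 to 166.5 CPM in stretch libraries and 80.9 to 106.9 CPM in control libraries, with 3 of 5 called higher. Stellate cell markers summed to 45.8 to 70.4 CPM in stretch libraries and 53.8 to 56.9 CPM in control libraries, with 0 of 8 called and 0 at an unadjusted p under 0.05. Lymphocyte markers, with Cd3d at 0 in every library, summed to 1.19 to 1.78 CPM in stretch libraries and 0.45 to 1.00 CPM in control libraries, and red cell markers to 0.15 to 0.56 CPM in stretch libraries and 0.22 to 0.77 CPM in control libraries. The part of these other cells in the results below was not tested, and in such bulk samples fewer cells of a type and less RNA per cell cannot be told apart.

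Transcripts of the respiratory chain subunits differed little between stretched and unstretched cells. Of 76 subunits tested, 8 were called higher in stretch libraries (Uqcrb, Uqcrq, Ndufab1, Ndufb6, Cox7a2, Cox5a, Atp5f1 and Atp5g3) and 2 lower (Ndufv3 and Ndufb11), while scaling by library size alone gave 1 higher and 13 lower. A call is an adjusted p under 0.05 in edgeR's quasi-likelihood test, adjusted by Benjamini-Hochberg over all 14222 genes in the fit. The called share of the subunits was 13.2%, against 44.0% of all genes tested, of which 21.4% were higher and 22.6% lower. Of the 7619 genes averaging 4 log2 CPM or more, the range that held 74 of the 76 subunits, 57.7% were called, 31.9% higher and 25.7% lower. In complexes II to V, 0 subunits were called lower by edgeR, DESeq2 or limma-voom, and 0 had an unadjusted p under 0.05 in that direction. Leaving out control replicate 2 or control replicate 4 gave 2 subunits called higher, and leaving out control replicate 3 or stretch replicate 4 gave 5. The number called lower was 1 without each of these 4 libraries. Without stretch replicate 1, the library with most hepatocyte transcript, 6 subunits were called higher and 2 lower.

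The sizes of the differences were small as well as the number of calls. The median log2 fold change of the 76 subunits, stretch over control, was 0.03, against -0.01 over all genes, and with library sizes alone both medians were below 0, at -0.06 and -0.11. The median absolute log2 fold change was 0.06 for subunits and 0.26 for all genes tested. The 95% interval of the fold change lay within 1.2-fold of no change, in either direction, for 62 of the 76 subunits and for 19.1% of all genes. It did so for 33.7% of the genes averaging 4 log2 CPM or more. Of the 62 subunits, 59 were not called, so for these a difference above 1.2-fold lies outside the interval at TMM scaling. Leaving aside 2 scarce isoforms of complex IV, log2 fold changes ran from -0.31 (Ndufv3) to 0.26 (Uqcrb), and Ndufv3 was the only subunit to differ by at least 1.2-fold with TMM scaling. For 29 of the 76 subunits the 2 groups had separate CPM ranges, 21 of them higher and 8 lower in stretch libraries, against separate ranges for 55.9% of all genes, 26.7% higher and 29.2% lower.

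**Figure D1:**
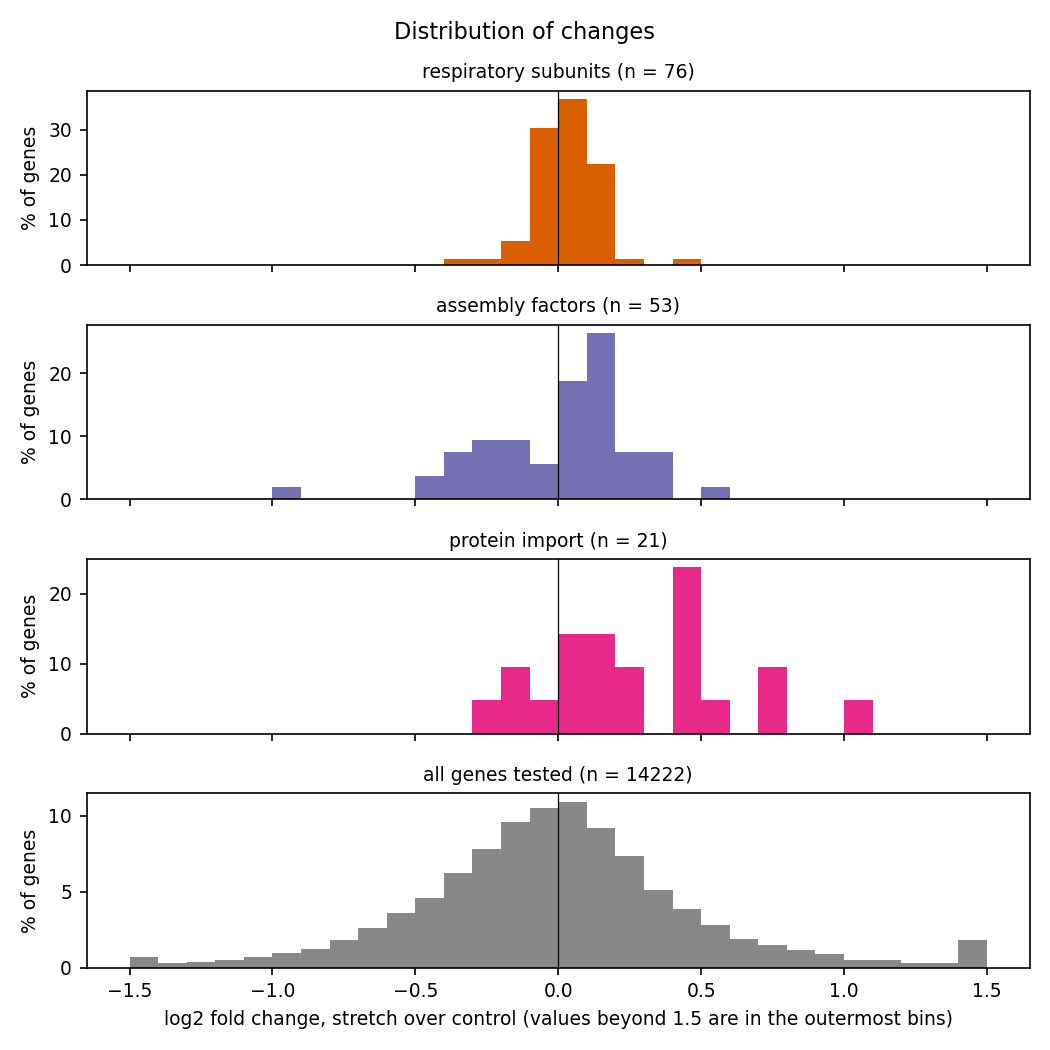
Distribution of log2 fold changes (stretch over control, x axis) as a share of the genes in each set (y axis, %), for the respiratory subunits, the assembly factors of complexes I to V, the protein import genes and all 14222 genes tested. The subunits lie close to 0, with a median absolute log2 fold change of 0.06, against 0.26 over all genes; the median of the subunits is 0.03 with TMM scaling and -0.06 with library sizes alone.

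**Figure D2:**
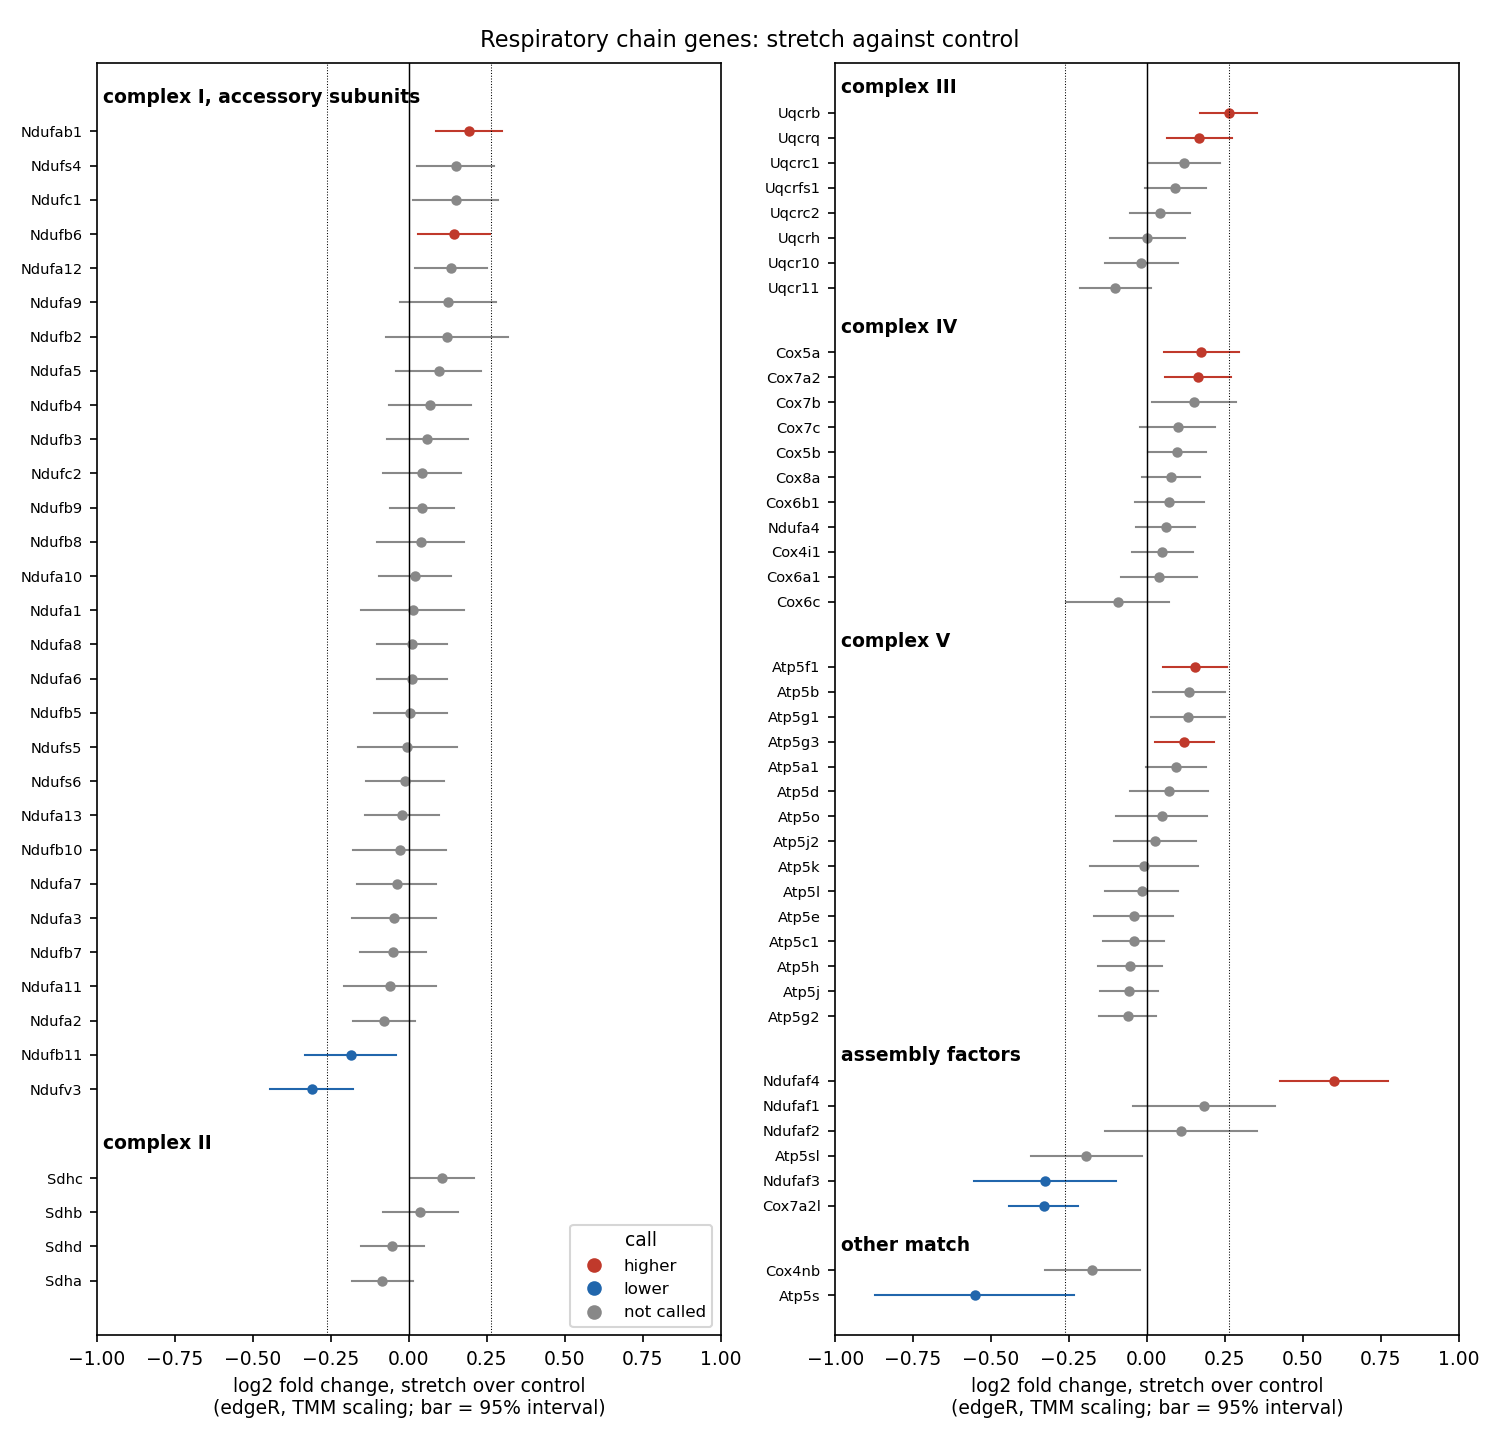
Log2 fold change (points, stretch over control) with its 95% interval (bars) for the accessory subunits of complex I, the subunits of complexes II to V and the other matching genes, with dotted lines at a 1.2-fold difference and colours for the call; Ndufa4l2 and Cox7a1, which have very few counts, are left out. Nearly all subunits lie between the dotted lines, while Ndufaf4, Cox7a2l, Ndufaf3 and Atp5s lie outside them.

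Within complex I, the entry point for NADH, stretched cells had more transcript of Ndufab1 and Ndufb6 and less of Ndufv3 and Ndufb11, and the other 32 of 36 subunits were not called. With library sizes alone 0 were higher and 5 lower. The number of complex I subunits called higher was 1 without control replicate 2, 3 or 4 or stretch replicate 4, and the number called lower was 1 without any of these libraries or stretch replicate 1. The median log2 fold change of the 36 was 0.01 with TMM scaling and -0.08 with library sizes alone.

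Ndufv3, an accessory subunit of the NADH-oxidising tip (chr17:31520115-31531325), had 21.8, 20.9 and 22.7 CPM in stretch libraries, against 26.6, 28.2 and 26.5 CPM in control libraries. Every stretch library was below every control library. Its log2 fold change was -0.31 ± 0.06 (SE, n = 3 per group; adjusted p = 0.0030), and the call was kept in all 13 alternative settings. Ndufab1 (chr7:122088044-122101848), the acyl carrier protein that also serves mitochondrial fatty acid synthesis, had 38.7, 40.4 and 40.7 CPM in stretch libraries, against 34.8, 35.1 and 34.9 CPM in control libraries. The control libraries lay close together and below all stretch libraries. Its log2 fold change was 0.19 ± 0.05 (adjusted p = 0.0097), and the call was lost with library sizes alone (adjusted p = 0.15). Ndufab1 overlaps Gm44986 on the other strand.

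The remaining calls in complex I concern accessory subunits of the membrane arm. Ndufb6 had 48.7, 49.5 and 53.3 CPM in stretch libraries, against 45.7, 46.4 and 45.0 CPM in control libraries (log2 fold change 0.14 ± 0.05, adjusted p = 0.0468). The call did not hold without control replicate 2 (adjusted p = 0.117), control replicate 3 (0.0802), control replicate 4 (0.133), stretch replicate 2 (0.0554) or stretch replicate 4 (0.147). Ndufb11 had 39.4, 45.8 and 42.6 CPM in stretch libraries, against 46.7, 48.3 and 50.5 CPM in control libraries (log2 fold change -0.19 ± 0.06, adjusted p = 0.0425). Stretch replicate 2 came close to the lowest control library. The call of Ndufb11 was lost without stretch replicate 1 (adjusted p = 0.136), stretch replicate 4 (0.102), control replicate 2 (0.0662), control replicate 3 (0.0893) or control replicate 4 (0.135). Both genes overlap a gene on the other strand, Smim27 and Rbm10, and Ndufb11 has 1 near-identical pseudogene copy, so reads may be shared. Per length, the most abundant complex I subunit was Ndufa7, with 104.1 ± 1.0 RPKM in stretch and 113.7 ± 7.8 RPKM in control libraries (SD, n = 3 per group; the authors' RPKM, with no TMM factor). Its log2 fold change in the count test was -0.04 (adjusted p = 0.60), and 0.02 without control replicate 3.

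In complex II, succinate dehydrogenase, which also belongs to the citric acid cycle, 0 of 4 subunits were called by edgeR or limma-voom, 1 had an unadjusted p under 0.05, and 1 was called higher by DESeq2 and at RLE scaling (Sdhc, adjusted p = 0.049 at RLE scaling). Sdha, the flavoprotein that oxidises succinate, had 173.8, 176.7 and 184.9 CPM in stretch libraries, against 187.9, 189.0 and 191.3 CPM in control libraries. The groups did not overlap, and the log2 fold change was -0.09 ± 0.04 (adjusted p = 0.14). Sdhb, the iron-sulfur subunit, had 78.5, 75.9 and 82.2 CPM in stretch libraries, against 72.7, 79.2 and 78.7 CPM in control libraries, and the groups overlapped (adjusted p = 0.61). Its log2 fold change was 0.04, and -0.0015 without control replicate 2. Sdhc, a membrane anchor, had 111.2, 118.3 and 115.8 CPM in stretch libraries, against 106.9, 109.2 and 104.3 CPM in control libraries (log2 fold change 0.11 ± 0.04, adjusted p = 0.080). Sdhd, the other anchor, had 74.2, 75.3 and 76.3 CPM in stretch libraries, against 77.5, 81.0 and 75.8 CPM in control libraries (log2 fold change -0.05 ± 0.04, adjusted p = 0.37). All 4 intervals lay within 1.2-fold. With library sizes alone Sdha and Sdhd were called lower (adjusted p = 0.013 and 0.035).

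In complex III, the ubiquinol to cytochrome c step, 2 of 8 subunits were called higher and 0 lower, and with library sizes alone 1 was higher and 1 lower. Uqcrb (chr13:66900621-66905350), a small subunit near the quinone site, had 91.2, 89.3 and 91.2 CPM in stretch libraries, against 75.9, 76.2 and 74.4 CPM in control libraries. The libraries of each group lay close together, with a wide gap between the groups. The log2 fold change was 0.26 ± 0.04 (adjusted p = 0.0011), and the call was kept in all 13 alternatives. Uqcrb has 3 near-identical processed pseudogene copies, and reads may be split between them. Uqcrb also overlaps Gm10767 on the other strand. Per length it was the most abundant subunit of the complex, with 161.3 ± 1.1 RPKM in stretch and 142.9 ± 1.8 RPKM in control libraries. Uqcrq, another small subunit, had 64.6, 63.4 and 61.3 CPM in stretch libraries, against 55.7, 58.1 and 54.8 CPM in control libraries (log2 fold change 0.17 ± 0.05, adjusted p = 0.018). The call of Uqcrq was lost without control replicate 2 (adjusted p = 0.061) or control replicate 4 (0.0659), so that 1 subunit of the complex was called without either of these, and with library sizes alone (0.24).

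In complex IV, cytochrome c oxidase, 13 of 19 subunits had enough counts to be tested; 2 were called higher and 0 lower, against 0 higher and 1 lower with library sizes alone. Cox5a, which faces the matrix, had 95.9, 96.4 and 91.8 CPM in stretch libraries, against 78.8, 87.7 and 85.3 CPM in control libraries. The groups did not overlap, and the log2 fold change was 0.17 ± 0.05 (adjusted p = 0.026). Cox5a overlaps Gm26631 on the other strand. Without 1 library the call was lost for 4 of 6 libraries: stretch replicate 1 (adjusted p = 0.0599), stretch replicate 2 (0.057), control replicate 2 (0.0907) and control replicate 4 (0.0547). Cox7a2, the broadly expressed form of subunit 7a, had 71.5, 69.5 and 75.5 CPM in stretch libraries, against 64.7, 63.5 and 65.1 CPM in control libraries (log2 fold change 0.16 ± 0.05, adjusted p = 0.021). The call of Cox7a2 was lost without stretch replicate 4 (adjusted p = 0.0729), control replicate 2 (0.06), control replicate 3 (0.0664) or control replicate 4 (0.0517). The number of complex IV subunits called higher was 0 without control replicate 2 or 4 and 1 without control replicate 3, stretch replicate 1 or stretch replicate 4. Without stretch replicate 1, 1 was also called lower. Cox6a1, the most abundant per length, had 291.2 ± 15.0 RPKM in stretch and 301.3 ± 18.3 RPKM in control libraries, and was not called in the count test (log2 fold change 0.04, and -0.05 with library sizes alone; adjusted p = 0.60).

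Several complex IV subunits have a second gene with restricted expression, such as the muscle forms Cox6a2, Cox7a1 and Cox8b, the testis form Cox6b2, and Cox4i2 and Ndufa4l2, which are known from oxygen-regulated settings. Of 8 such genes, 6 fell under the minimum of 10 counts in 3 libraries: Cox4i2, Cox6a2, Cox6b2, Cox7b2, Cox8b and Cox8c. Ndufa4l2 passed it, with 22, 46 and 40 counts in stretch libraries and 14, 13 and 44 in control libraries. Just inside the minimum was Cox7a1, with 12, 13 and 2 counts in stretch libraries and 16, 7 and 6 in control libraries. Just outside was Cox4i2, with 2, 10 and 15 counts in stretch libraries and 6, 7 and 8 in control libraries. Summed over 3 libraries, Cox6a2 had 6 counts in stretch and 7 in control, Cox6b2 had 15 and 16, and Cox8b had 1 and 5. Each of these scarce forms therefore took under 1% of the counts of its pair in every library. Ndufa4l2 took 0.67 ± 0.19% of the counts of Ndufa4 and Ndufa4l2 in stretch libraries and 0.52 ± 0.40% in control libraries (SD over 3 libraries each; exact two-sided permutation p = 0.7). On the other strand Ndufa4l2 overlaps Shmt2 and Cox6a2 overlaps Itgad, so their few reads may be shared. Cox7a1 took 0.21 ± 0.14% of its pair with Cox7a2 in stretch and 0.27 ± 0.13% in control libraries (exact permutation p = 0.6). Cox4i2 took 0.080 ± 0.060% of its pair with Cox4i1 in stretch and 0.073 ± 0.014% in control libraries (exact permutation p = 0.9). Cox6a2 took 0.020 ± 0.0026% and 0.026 ± 0.017% of its pair with Cox6a1 (exact permutation p = 0.7), and Cox6b2 took 0.080 ± 0.043% and 0.0998 ± 0.021% of its pair with Cox6b1 (exact permutation p = 0.6), in stretch and control libraries. Cox8b took 0.0055 ± 0.0094% of its pair with Cox8a in stretch and 0.030 ± 0.0095% in control libraries (exact permutation p = 0.1). The smallest p that 3 against 3 allows is 0.1, so no share could pass a threshold of 0.05. Cox8b reached that smallest p: its shares of 0, 0 and 0.016% in stretch libraries lay below those of 0.033, 0.019 and 0.037% in control libraries, on 1 and 5 counts in all. The differences in share of Cox7a1, Cox4i2, Cox6a2 and Cox6b2 changed sign when single libraries were left out.

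The broad forms in these pairs carried nearly all the transcript. Cox7a2 was called higher and Cox6a1 was not called, as given above. Cox4i1 had 184.4 ± 5.8 CPM in stretch and 178.2 ± 2.9 CPM in control libraries, Cox6b1 had 103.3 ± 5.0 and 98.3 ± 2.1 CPM, Cox8a had 108.5 ± 2.1 and 102.9 ± 1.9 CPM, and Ndufa4 had 88.3 ± 1.8 and 84.7 ± 1.3 CPM, in stretch and control libraries (SD, n = 3 per group). None of these 4 was called (adjusted p between 0.16 and 0.39), and all 4 log2 fold changes were above 0 with TMM scaling and below 0 with library sizes alone.

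In complex V, the ATP synthase, 2 of 15 subunits were called higher and 0 lower, against 0 higher and 4 lower with library sizes alone, and all 15 intervals lay within 1.2-fold. Atp5f1, subunit b of the peripheral stalk, had 214.1, 205.4 and 205.0 CPM in stretch libraries, against 187.8, 192.6 and 181.2 CPM in control libraries (log2 fold change 0.15 ± 0.04, adjusted p = 0.023). The groups did not overlap. Its call was lost without stretch replicate 1 (adjusted p = 0.0695), control replicate 2 (0.0658) or control replicate 4 (0.0826), and it overlaps Wdr77 on the other strand. Atp5g3, 1 of 3 genes that encode the same mature subunit c of the membrane ring, had 161.7, 165.3 and 159.5 CPM in stretch libraries, against 147.7, 152.9 and 147.1 CPM in control libraries (log2 fold change 0.12 ± 0.04, adjusted p = 0.044). Its call was lost without any 1 of the 6 libraries: stretch replicate 1 (adjusted p = 0.079), stretch replicate 2 (0.0839), stretch replicate 4 (0.072), control replicate 2 (0.127), control replicate 3 (0.0599) and control replicate 4 (0.126). The number of complex V subunits called higher was 0 without stretch replicate 1, control replicate 2 or control replicate 4, and 1 without stretch replicate 4 or control replicate 3.

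The other 2 subunit c genes were not called, and their log2 fold changes had opposite signs. Atp5g1 had 59.5, 56.7 and 61.3 CPM in stretch libraries, against 51.7, 56.3 and 54.2 CPM in control libraries (log2 fold change 0.13 ± 0.05, adjusted p = 0.073). Atp5g2 had 101.5, 100.9 and 104.2 CPM in stretch libraries, against 106.8, 107.8 and 105.4 CPM in control libraries (log2 fold change -0.06 ± 0.04, adjusted p = 0.25). Atp5g1 took 18.3 ± 0.7% of the counts of the 3 genes in stretch and 17.4 ± 0.5% in control libraries (SD over 3 libraries each; exact two-sided permutation p = 0.3). Atp5b, the catalytic beta subunit and per length the most abundant transcript of the whole set, had 1053, 1024 and 1083 CPM in stretch libraries, against 924.7, 1001 and 954.0 CPM in control libraries. Its lowest stretch library was above its highest control library, and the log2 fold change was 0.13 ± 0.05 (adjusted p = 0.060).

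**Figure D3:**
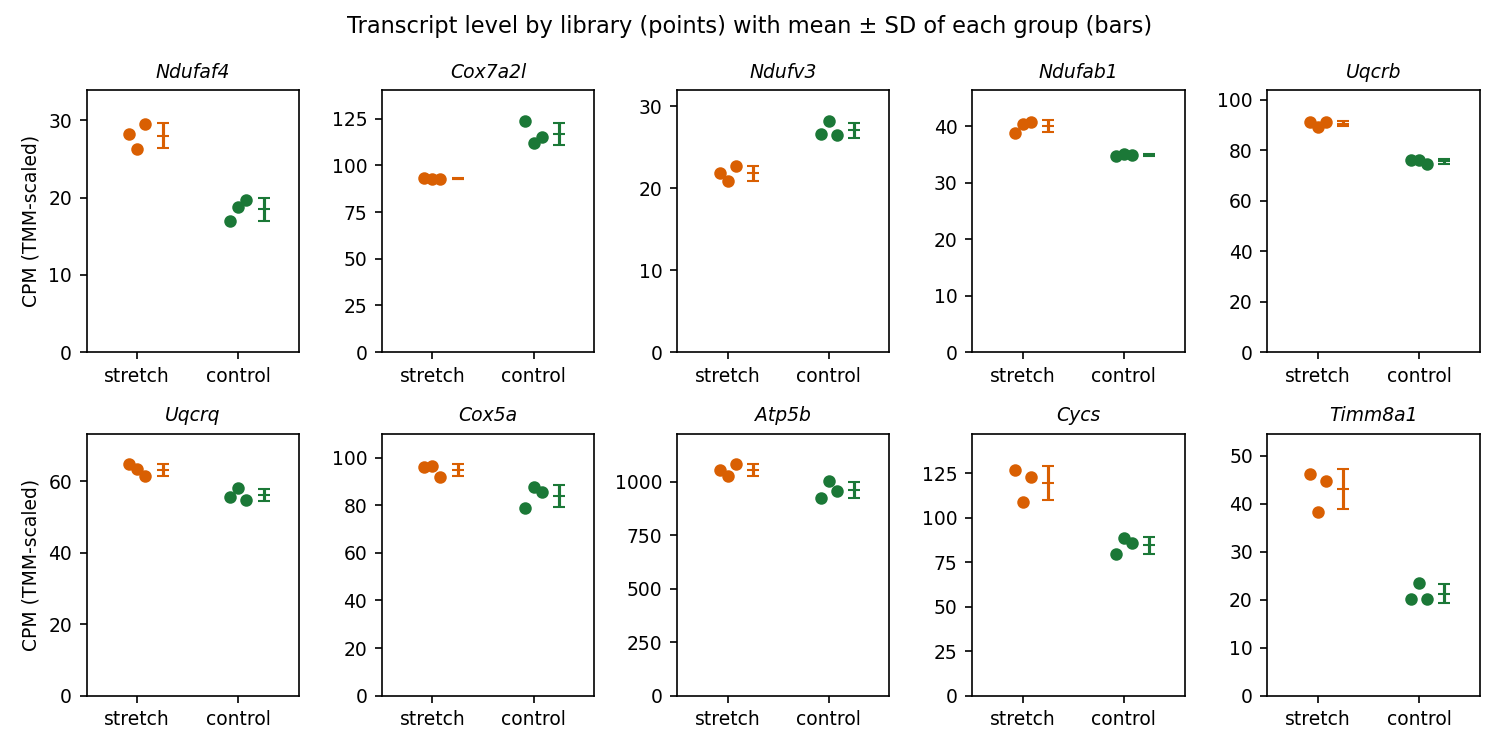
TMM-scaled CPM (y axis, from 0) of 10 genes in each stretch and control library (points), with the mean and SD of each group (bars). Stretch libraries lie above control libraries in all panels but Cox7a2l and Ndufv3, where they lie below; the gap is widest relative to the level in Timm8a1 and Ndufaf4.

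Per length, subunits of one complex differed far more between genes than between groups. Mean RPKM over all 6 libraries ran from 12.7 (Ndufa11) to 108.9 (Ndufa7) in complex I, from 55.2 (Sdhd) to 87.0 (Sdhc) in complex II and from 41.6 (Uqcrfs1) to 152.1 (Uqcrb) in complex III. Among the broad forms of complex IV it ran from 51.8 (Cox7b) to 296.2 (Cox6a1), and in complex V from 56.1 (Atp5c1) to 494.9 (Atp5b). The median RPKM was 50.2, 63.3, 77.0, 144.5 and 127.9 in complexes I to V, against 6.66 over all genes tested. Ndufa11, Sdhd, Uqcrfs1, Cox7b and Atp5c1 are named here for their low level per length alone, which was seen first. RPKM is divided by the table's coding length, which is 2661 bases for Ndufa11, against a median of 679 for the subunits tested. Not divided by length, Ndufa11 had 35.8 CPM in stretch and 37.3 CPM in control libraries.

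Summed over each complex, transcripts of complexes III, IV and V were higher in stretch libraries with TMM scaling, and those of complexes I and II were level. Complex III summed to 604.5, 601.6 and 622.1 CPM in stretch libraries, against 567.2, 571.7 and 574.3 CPM in control libraries, a difference of 6.72%, and of 0.0704% with library sizes alone. Complex IV summed to 1104, 1092 and 1123 CPM in stretch libraries, against 1037, 1077 and 1043 CPM in control libraries, a difference of 5.12%, and of -1.42% with library sizes alone. Complex V summed to 2847, 2814 and 2898 CPM in stretch libraries, against 2641, 2779 and 2678 CPM in control libraries, a difference of 5.68%, and of -0.904% with library sizes alone. In these 3 complexes every stretch library lay above every control library with TMM scaling, and the groups overlapped with library sizes alone. Complex I summed to 1578 ± 38 CPM in stretch and 1578 ± 36 CPM in control libraries, and complex II to 447.7 ± 10.8 and 451.2 ± 6.8 CPM (SD, n = 3 per group). With library sizes alone complex I differed by -6.25% and complex II by -6.93%, and every stretch library lay below every control library. The catalytic Atp5b, which was not called, gave 93.4 of the 153 CPM by which the mean sums of complex V differed, and the other 14 subunits summed to 1794, 1790 and 1815 CPM in stretch libraries, against 1716, 1778 and 1724 CPM in control libraries, a difference of 3.45%. Without Sdha, the other 3 subunits of complex II differed by 2.85%, and the groups overlapped. Leaving out the subunit with the highest CPM was chosen after the data were seen. These sums were chosen members' totals and were not tested.

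**Figure D4:**
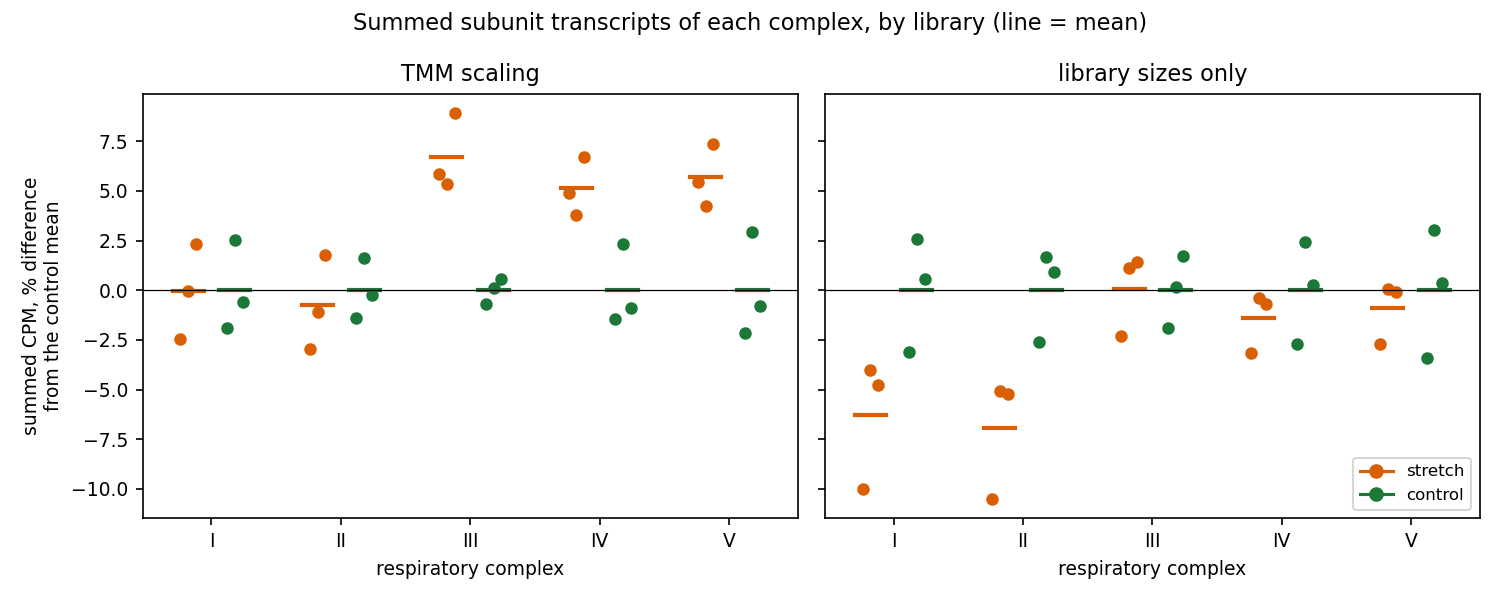
Summed CPM of the subunits of each complex in each library (points, y axis: % difference from the control mean; lines: group means), with TMM scaling on the left and library sizes alone on the right. Relative to control libraries, complexes I and II lie lower than complexes III, IV and V in stretch libraries under both scalings. The stretch means of complexes I and II are at or below 0 under both. Those of complexes III, IV and V are above 0 with TMM scaling. With library sizes alone complex III is level with control libraries (0.0704%), complexes IV and V are slightly below 0, and the groups overlap in all of these.

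The share of each complex in the subunit counts of a library needs no scaling between libraries. Complex I took 23.6, 24.2 and 24.0% of subunit counts in stretch libraries, against 24.8, 24.9 and 24.8% in control libraries. Complex II took 6.70, 6.83 and 6.84% in stretch libraries, against 7.13, 7.05 and 7.13% in control libraries. The shares of these 2 complexes were thus below those of all control libraries in every stretch library. Complex III took 9.25, 9.21 and 9.26% in stretch libraries, against 9.09, 8.79 and 9.10% in control libraries. Complex IV took 16.90, 16.72 and 16.72% in stretch libraries, against 16.62, 16.56 and 16.52% in control libraries. Complex V took 43.6, 43.1 and 43.1% in stretch libraries, against 42.3, 42.7 and 42.4% in control libraries. The last 3 complexes were above all control libraries in every stretch library, by under 1 percentage point in the mean. The subunit with the highest CPM, not divided by length, was then left out of each complex. The shares of the remaining subunits overlapped between groups in complexes II, III and V, without Sdha, Uqcrc1 and Atp5b. That of complex IV stayed higher without Cox4i1. Other subunits were not left out in this way, so it was not tested whether the separation rests on these alone. Without Atp5b, complex V took 32.73, 32.49 and 32.21% in stretch libraries, against 32.29, 32.31 and 32.17% in control libraries. All 82 subunits together took 0.622, 0.647 and 0.646% of all counts in stretch libraries, against 0.636, 0.672 and 0.660% in control libraries, and the groups overlapped.

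**Figure D5:**
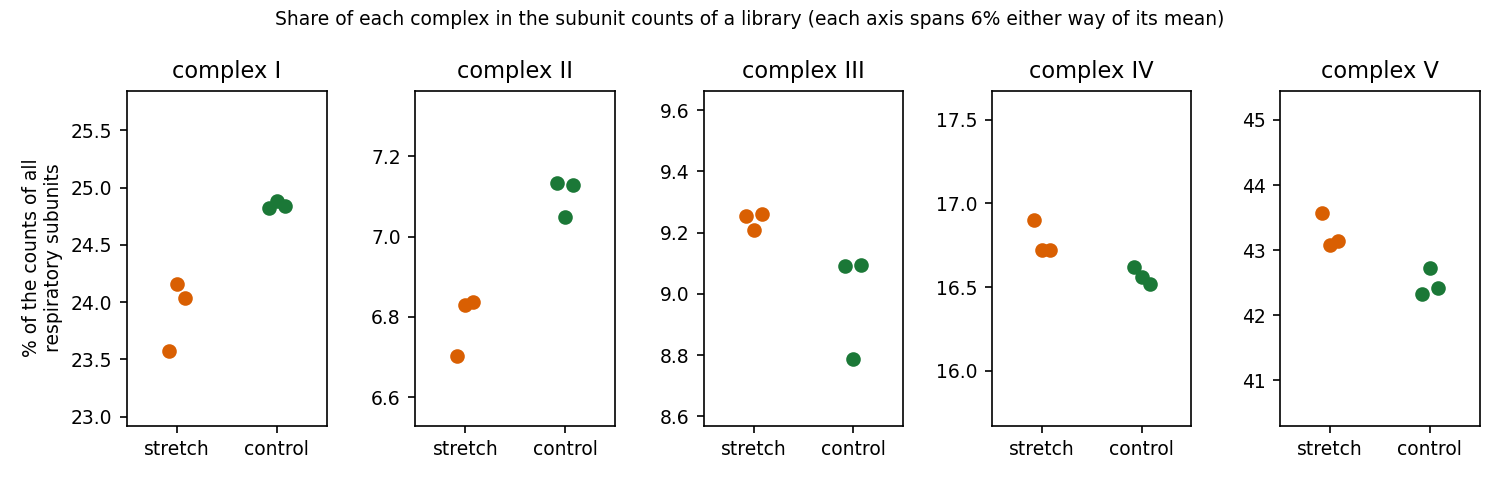
Share of each complex in the subunit counts of a library (y axis, %), with stretch libraries left of control libraries; each axis spans 6% either way of its mean and does not start at 0. Complexes I and II have lower shares in all stretch libraries, and complexes III, IV and V have higher shares.

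Of the 6 assembly factors that share the symbols of the subunits, 1 was called higher and 2 lower, a called share of 50%, against 44.0% of all genes. Their median absolute log2 fold change was 0.26, as over all genes. Ndufaf4 (chr4:24898083-24905001), which acts early in building complex I, had 28.2, 26.3 and 29.5 CPM in stretch libraries, against 16.9, 18.8 and 19.8 CPM in control libraries. The lowest stretch library was well above the highest control library. Its log2 fold change was 0.60 ± 0.08 (1.52-fold, adjusted p = 0.00044), the largest rise among the 84 genes tested. Ndufaf3, its binding partner in that step, had 7.98, 7.72 and 8.89 CPM in stretch libraries, against 10.7, 10.8 and 9.33 CPM in control libraries (log2 fold change -0.33 ± 0.10, adjusted p = 0.027). The 2 partners thus differed in opposite directions. The call of Ndufaf3 was lost without stretch replicate 1 (adjusted p = 0.077), stretch replicate 2 (0.0876), control replicate 2 (0.0941) or control replicate 3 (0.0892), and the gene overlaps Impdh2 on the other strand.

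Cox7a2l (chr17:83501917-83514333), which joins complexes III and IV into supercomplexes, had 93.2, 93.0 and 92.8 CPM in stretch libraries, against 123.6, 112.0 and 115.4 CPM in control libraries. The stretch libraries were almost level with each other and below all control libraries. Its log2 fold change was -0.33 ± 0.05 (1.26-fold lower, adjusted p = 0.00090). The calls of Ndufaf4 and Cox7a2l were kept in all 13 alternatives, with log2 fold changes of 0.51 to 0.66 and of -0.42 to -0.29. Of the matching genes counted neither as subunits nor as assembly factors, Atp5s had 3.21, 3.70 and 2.99 CPM in stretch libraries, against 4.93, 5.12 and 4.49 CPM in control libraries (log2 fold change -0.55 ± 0.14, adjusted p = 0.012), and Cox4nb was not called (log2 fold change -0.18 ± 0.07, adjusted p = 0.061).

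Promoters of respiratory chain genes are known for sites of NRF1, of ETS factors such as GABPA and of YY1. The RefSeq promoter table (GRCm38.p6, 250 bases before to 50 after the start) held 67 of the 82 subunits. The letters GCATGCG (core of the NRF1 site), CCGGAAG (ETS core) and AAGATGG (YY1 core) were searched on both strands; because the NRF1 core is nearly its own reverse complement, CGCATGCG counts once on each strand at neighbouring positions. At least 1 of the 3 motifs was found in 46.3% of the subunit promoters, in 29.5% of those of all tested genes that matched and in 19.3% of the whole table. The NRF1 core was in 16.4%, the ETS core in 23.9% and the YY1 core in 16.4% of subunit promoters, against 6.88%, 18.5% and 7.93% of those of tested genes. Of subunits with an entry, 2 of 8 called and 29 of 56 not called had a match. The promoters below belong to the genes whose calls were kept in all alternatives and that have an entry, and to Uqcrc1, a core protein of complex III chosen after its motif was seen. Capitals mark matches to any of the 3 cores.
Ndufaf4, chr4:24897833-24898132, plus strand: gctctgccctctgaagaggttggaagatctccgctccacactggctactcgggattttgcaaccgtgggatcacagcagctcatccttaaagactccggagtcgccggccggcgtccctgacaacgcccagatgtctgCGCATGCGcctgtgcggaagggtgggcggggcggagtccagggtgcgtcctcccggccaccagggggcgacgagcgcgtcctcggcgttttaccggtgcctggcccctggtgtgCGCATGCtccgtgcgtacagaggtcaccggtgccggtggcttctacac
Cox7a2l, chr17:83514284-83514583, minus strand: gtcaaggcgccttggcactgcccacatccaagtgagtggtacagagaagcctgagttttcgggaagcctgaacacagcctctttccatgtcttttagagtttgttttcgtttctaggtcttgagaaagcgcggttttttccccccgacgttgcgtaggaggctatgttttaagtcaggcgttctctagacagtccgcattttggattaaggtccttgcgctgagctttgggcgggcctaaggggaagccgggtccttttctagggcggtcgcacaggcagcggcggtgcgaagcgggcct
Ndufv3, chr17:31519865-31520164, plus strand: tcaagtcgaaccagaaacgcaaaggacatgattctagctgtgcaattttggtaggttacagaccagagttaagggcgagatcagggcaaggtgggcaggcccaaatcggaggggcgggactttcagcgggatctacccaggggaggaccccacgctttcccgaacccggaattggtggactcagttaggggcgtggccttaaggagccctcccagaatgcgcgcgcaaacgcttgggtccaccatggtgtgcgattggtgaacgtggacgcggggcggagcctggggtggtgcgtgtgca
Uqcrc1, chr9:108936398-108936697, plus strand: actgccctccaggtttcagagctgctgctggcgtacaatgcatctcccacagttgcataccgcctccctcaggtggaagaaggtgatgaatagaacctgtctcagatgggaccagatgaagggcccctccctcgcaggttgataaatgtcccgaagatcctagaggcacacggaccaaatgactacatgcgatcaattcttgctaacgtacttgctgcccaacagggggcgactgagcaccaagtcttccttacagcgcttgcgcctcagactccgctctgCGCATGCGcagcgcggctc
The Ndufaf4 promoter held the NRF1 core on both strands at positions -112 and -111, with the start base counted as 1 and the base before it as -1, and once more at 3, and Uqcrc1 held it at 32 and 33. These letters are not in the windows of Cox7a2l and Ndufv3. Uqcrc1, with the same paired core as Ndufaf4 at another position, had 148.7, 146.3 and 160.5 CPM in stretch libraries, against 136.1, 143.1 and 139.9 CPM in control libraries (log2 fold change 0.12 ± 0.05, adjusted p = 0.082). It was not called, though every stretch library was above every control library. A part of the core in the levels of these genes was not tested.

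A list of 13 nuclear-encoded regulators of mitochondrial genes holds transcription factors, only some of them factors of such sites, and coactivators. It also holds 4 proteins that act on mitochondrial DNA itself (Tfam, Tfb1m, Tfb2m and Polrmt). Of these 13, 3 were called higher and 2 lower, against the 21.4% and 22.6% of all genes given above, with a median log2 fold change of 0.14, and 0.05 with library sizes alone. Pprc1, a coactivator related to PGC-1alpha, had 151.8, 142.9 and 156.7 CPM in stretch libraries, against 86.6, 95.9 and 88.1 CPM in control libraries (log2 fold change 0.74 ± 0.06, adjusted p = 7.1e-05). Yy1 rose by 0.29 ± 0.04 (adjusted p = 0.0011) and Gabpb1, a partner of GABPA, by 0.23 ± 0.06 (adjusted p = 0.012) on the log2 scale. The call of Gabpb1 was lost with library sizes alone (adjusted p = 0.102). The 2 called lower, named after their values were seen, were Gabpb2 and Polrmt. Gabpb2, the paralog of Gabpb1, had a log2 fold change of -0.15 ± 0.05 (adjusted p = 0.038), and Polrmt of -0.30 ± 0.08 (adjusted p = 0.013). Nrf1 had 59.4 ± 3.4 CPM in stretch and 53.4 ± 2.7 CPM in control libraries (adjusted p = 0.065), and Tfam, the packaging and transcription factor of mitochondrial DNA, had 30.2 ± 1.1 and 27.4 ± 0.9 CPM (adjusted p = 0.071). Esrra had 32.9 ± 1.8 CPM in stretch and 31.6 ± 2.5 CPM in control libraries (log2 fold change 0.06, and -0.0052 without control replicate 3; adjusted p = 0.55). Gabpa had 90.0 ± 5.0 CPM in stretch and 88.5 ± 6.1 CPM in control libraries (adjusted p = 0.79), with a log2 fold change of 0.02, of -0.03 without control replicate 4 and of -0.02 without stretch replicate 1. Ppargc1a, the PGC-1alpha gene, was scarce, at 0.57, 0.29 and 0.27 CPM in stretch libraries and 0.24, 0.24 and 0.45 CPM in control libraries (log2 fold change 0.29, and -0.12 without stretch replicate 1; adjusted p = 0.64).

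Respiratory chain genes outside the symbol pattern included 3 called higher and 2 lower of 10 tested, with a median log2 fold change of -0.02, and -0.11 with library sizes alone. The called share was 50%, against 44.0% of all genes and 57.7% of the genes averaging 4 log2 CPM or more. Cycs, cytochrome c, which shuttles electrons from complex III to complex IV, had 126.6, 108.9 and 122.9 CPM in stretch libraries, against 79.4, 88.7 and 85.6 CPM in control libraries. The groups were well apart, with a log2 fold change of 0.50 ± 0.07 (1.41-fold, adjusted p = 0.00065). Cyc1, the cytochrome c1 of complex III, had 92.6, 100.7 and 107.1 CPM in stretch libraries, against 80.5, 90.8 and 87.9 CPM in control libraries (log2 fold change 0.21 ± 0.07, adjusted p = 0.031). Its call was lost with library sizes alone (log2 fold change 0.12, adjusted p = 0.214) or without stretch replicate 2 (adjusted p = 0.0623), stretch replicate 4 (0.11), control replicate 2 (0.117) or control replicate 4 (0.0667). Usmg5, named after its values were seen, was also called higher (log2 fold change 0.20 ± 0.07, adjusted p = 0.040). With library sizes alone its log2 fold change was 0.10. Cyc1 and Usmg5 match no symbol of the pattern, so the counts and sums by complex leave both out. Atpif1, the inhibitor of the ATP synthase run in reverse, was lower in stretch libraries (log2 fold change -0.19 ± 0.06, adjusted p = 0.027). The call of Atpif1 was lost without stretch replicate 2 (adjusted p = 0.101), stretch replicate 4 (0.0663), control replicate 2 (0.105) or control replicate 4 (0.0609).

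Assembly factors of the wider lists went both ways. For complex I, 2 of 16 were called higher and 2 lower (25% in all, against 44.0% of all genes; median log2 fold change 0.13, and 0.03 with library sizes alone): beside Ndufaf4, Tmem186 rose by 0.28 ± 0.07 (adjusted p = 0.011) and Foxred1 fell by 0.25 ± 0.07 (adjusted p = 0.020) on the log2 scale. The call of Tmem186 was lost with library sizes alone (adjusted p = 0.0635). The call of Foxred1 was lost with the replicate block (adjusted p = 0.146) or without stretch replicate 1 (adjusted p = 0.0668), control replicate 3 (0.0695) or control replicate 4 (0.0572). For complexes II and III, 1 of 10 was called higher and 4 lower (50% in all; median -0.16, and -0.25 with library sizes alone). Uqcc, also called Uqcc1, which acts on cytochrome b, had a log2 fold change of 0.26 ± 0.07 (adjusted p = 0.015), and AI462493, also called Uqcc3, of -0.43 ± 0.08 (adjusted p = 0.0033). Lyrm7, a chaperone of the Rieske protein, had 0.48, 0.85 and 0.78 CPM in stretch libraries, against 1.25, 1.31 and 1.57 CPM in control libraries (log2 fold change -0.95 ± 0.28, adjusted p = 0.025). The call of Uqcc was lost without stretch replicate 4 (adjusted p = 0.0531), control replicate 2 (0.0514) or control replicate 4 (0.0561), and that of Lyrm7 without stretch replicate 1 (0.059), stretch replicate 4 (0.054), control replicate 2 (0.059), control replicate 3 (0.0548) or control replicate 4 (0.0915).

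For complex IV, 3 of 23 assembly factors were called higher and 3 lower (median log2 fold change 0.09, and -0.01 with library sizes alone). The called share was 26.1%, against 44.0% of all genes. Sco2, a chaperone that carries copper to the enzyme, had 42.8, 43.5 and 45.3 CPM in stretch libraries, against 33.2, 35.2 and 35.0 CPM in control libraries (log2 fold change 0.35 ± 0.05, adjusted p = 0.00079). Among other copper carriers, Sco1 rose by 0.31 ± 0.07 (adjusted p = 0.0093) and Cox17 by 0.21 ± 0.06 (adjusted p = 0.015) on the log2 scale. Cox11 (log2 fold change 0.16 ± 0.10, adjusted p = 0.22) and Cox19 (0.10 ± 0.09, adjusted p = 0.38), added after their values were seen, were not called. The 3 factors called lower were also named after their values were seen. They were Cox15 (log2 fold change -0.18 ± 0.06, adjusted p = 0.029), Cmc1 (-0.39 ± 0.10, adjusted p = 0.017) and 2310061C15Rik, also called Cmc2 (-0.48 ± 0.17, adjusted p = 0.046). The call of Sco1 was lost with library sizes alone (adjusted p = 0.0516), and that of Cox17 with library sizes alone (0.116), with the replicate number as a block (0.0611) or without control replicate 4 (0.0579). For complex V, 1 of 3 was called higher and 1 lower: Tmem70, which helps build the membrane part, rose by 0.36 ± 0.06 (adjusted p = 0.0014), and Atpaf1, which helps build the F1 head, fell by 0.28 ± 0.07 (adjusted p = 0.011) on the log2 scale.

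Upstream of the chain, 5 of 17 genes of the citric acid cycle and pyruvate dehydrogenase were called higher and 0 lower by edgeR, 6 higher and 0 lower by DESeq2, and 5 higher and 0 lower by limma-voom, while 3 had an unadjusted p under 0.05 in the lower direction. The called share was 29.4%, against 44.0% of all genes and 57.7% of the genes averaging 4 log2 CPM or more. The median log2 fold change was 0.02, and -0.07 with library sizes alone. Dlst, the core of the oxoglutarate dehydrogenase complex, had 204.0, 199.3 and 207.1 CPM in stretch libraries, against 140.9, 152.9 and 148.2 CPM in control libraries (log2 fold change 0.47 ± 0.05, adjusted p = 0.00016). Idh3a, a subunit of the NAD-dependent isocitrate dehydrogenase, rose by 0.34 ± 0.06 (adjusted p = 0.0018), and Mdh2, mitochondrial malate dehydrogenase, by 0.19 ± 0.05 (adjusted p = 0.0095) on the log2 scale; the call of Mdh2 was lost with library sizes alone (0.111).

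The genes that carry nuclear-encoded subunits into mitochondria had the highest median of the 8 lists. Of 21 tested import genes, 10 were called higher and 1 lower, with a median log2 fold change of 0.22, and 0.12 with library sizes alone. The called share was 52.4%, against 44.0% of all genes and 57.7% of the genes averaging 4 log2 CPM or more, of which 31.9% were higher. Timm8a1, a small chaperone of the space between the membranes, had 46.2, 38.3 and 44.7 CPM in stretch libraries, against 20.2, 23.5 and 20.2 CPM in control libraries. All stretch libraries were far above all control libraries, with a log2 fold change of 1.02 ± 0.09 (2.03-fold, adjusted p = 9.9e-05). Timm17a, part of the inner membrane channel, had 66.4, 62.3 and 69.1 CPM in stretch libraries, against 46.1, 45.5 and 47.7 CPM in control libraries (log2 fold change 0.51 ± 0.05, adjusted p = 0.00018). Tomm70a, a receptor on the outer membrane, had 251.5, 233.5 and 252.4 CPM in stretch libraries, against 176.8, 180.2 and 166.3 CPM in control libraries (log2 fold change 0.49 ± 0.05, adjusted p = 0.00019). These lists are described by their counts beside those of all genes, and no difference between lists was tested.

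In the authors' deposited table, 6 of the 82 subunits were higher and 1 lower at an FDR under 0.05, against 2864 higher and 2848 lower of 23336 genes. These 23336 genes include those without counts, so this background is unlike that of the 14222 genes tested here.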

How the data were processed

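RNA from 3 stretch and 3 control libraries of mouse liver sinusoidal endothelial cells was sequenced with a TruSeq kit, per the labels. The authors deposited raw counts for each gene; TopHat2 2.1.0, featureCounts and edgeR with the genome build GRCm38 (mm10) are named in the submitters' processing notes. Which annotation and strand setting served for counting was not stated in the labels or headers, and reads of a gene and an overlapping gene on the other strand cannot be told apart. RPKM values per kilobase of the table's coding length were deposited by the authors, and carry no TMM factor. The authors' deposited comparison table gives log2 fold changes, a likelihood ratio score, p-values and FDR, per the file headers. Gene coordinates come from the count table.

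The count test was run in edgeR 4.0.16 (R 4.3.3): TMM factors between 0.953 and 1.045, filterByExpr, then a quasi-likelihood F test of stretch against control, adjusted by Benjamini-Hochberg over 14222 genes. A further 4781 genes had 0 counts throughout. Calls were made at an adjusted p under 0.05. Standard errors are the log2 fold change divided by the square root of F, and 95% intervals used the fit's degrees of freedom. The common biological coefficient of variation was 0.12. CPM values are TMM-scaled unless library sizes are named. Isoform shares were compared by exact permutation tests.

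The members and lists were chosen with earlier results of these data known. The text names all Sdh subunits, up to 5 called subunits with the smallest p per complex and direction, the subunit with the highest RPKM per complex, fixed isoform pairs, the 3 called members of lowest p per list, and 7 regulators and carriers whatever their result. Older symbols were resolved through the RefSeq gene table. Near-identical copies are transcripts with at least 95% identity over at least 50% of the length. The alternatives were RLE factors, library sizes alone, no filter, at least 10 counts in 3 libraries, the replicate number as a block, DESeq2 1.42.0, limma-voom (limma 3.58.1) and each library left out in turn. The steps were tested on simulated data in which a small share of genes was changed, each by more than 1.2-fold. That test does not cover differences as small as those of most subunits, or changes in as many genes as were called here. Some genes counted in the totals are not reported here.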

Additional observations from a re-analysis of the deposited data

How the results depend on the processing

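Scaling had the widest effect on the subunits. With library sizes alone the median of all genes moved by -0.0921 on the log2 scale, the split of calls over all genes was 2091 higher and 4299 lower (3040 and 3221 with TMM), and 1 subunit was called higher and 13 lower: complex I 0 and 5, II 0 and 2, III 1 and 1, IV 0 and 1, V 0 and 4. The log2 ratios of summed CPM were then -0.0931 (I), -0.104 (II), 0.0010 (III), -0.0207 (IV), -0.0131 (V) and -0.0389 (all). RLE factors gave 12 subunits higher and 1 lower, with 4 higher and 1 lower in complex I and 1 higher in complex II. DESeq2 gave 12 higher and 1 lower, with 1 higher in complex II, 4 higher in complex V and 1 lower in complex I. Without a filter 1 subunit of complex I and 1 of complex V were higher, and limma-voom gave 1 higher in complex I.

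Numbers 2 and 4 are shared by the groups, but deviations from the group means correlated by 0.243 and -0.0226, and no label ties equal numbers to a shared isolation, so the libraries were not treated as pairs; 0.243, for the replicates numbered 2, was the highest of the 9 possible pairings. With the replicate number as a block, 6 subunits were higher and 1 lower (complex I 1 lower, complex IV 1 higher, complex V 0 higher). Stretch replicate 1 and control replicate 3 have no library of the same number in the other group. The contrast of the block fit therefore rests on replicates 2 and 4 of each group.

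With 1 library left out, between 2 and 9 subunits were called higher and between 1 and 2 lower: complex I 1 to 3 higher and 1 to 2 lower, III 1 to 2 higher, IV 0 to 2 higher and 0 to 1 lower, V 0 to 3 higher, and 4756 to 5895 of all genes. The log2 ratio of summed CPM then lay between -0.0178 and 0.0177 (I), -0.0298 and 0.0049 (II), 0.0787 and 0.103 (III), 0.0613 and 0.0891 (IV), 0.0642 and 0.101 (V) and 0.0403 and 0.0712 (all). With the subunit of highest CPM left out, chosen after seeing the data, it was 0.0405 for complex II and 0.0489 for complex V.

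Of 727 comparisons of the 56 genes named by the rule with an alternative, 20 changed sign, all in genes that were not called. With library sizes alone the log2 fold change was -0.0430 for Cox4i1, -0.0539 for Cox6a1, -0.0209 for Cox6b1, -0.0158 for Cox8a, -0.0313 for Ndufa4, -0.0562 for Sdhb, -0.0351 for Esrra and -0.0687 for Gabpa. With the block it was -0.0513 for Esrra, -0.0212 for Gabpa, 0.0141 for Ndufa7 and -0.230 for Ppargc1a. It was 0.241 for Cox7a1 and -0.0015 for Sdhb without control replicate 2, -0.0052 for Esrra and 0.0153 for Ndufa7 without control replicate 3, -0.0261 for Gabpa without control replicate 4, -0.0167 for Gabpa and -0.121 for Ppargc1a without stretch replicate 1, and 0.210 for Cox7a1 without stretch replicate 4. Over all libraries left out, the log2 fold change lay between -0.568 and 0.241 for Cox7a1, -0.0052 and 0.0992 for Esrra, -0.0261 and 0.0744 for Gabpa, -0.0737 and 0.0153 for Ndufa7, -0.121 and 0.664 for Ppargc1a, and -0.0015 and 0.0770 for Sdhb. Isoform shares changed sign for Cox4i2 (-0.0225 percentage points without stretch replicate 4, -0.00024 without control replicate 2), Cox7a1 (0.0186 and 0.0126), Cox6a2 (0.0030 without control replicate 3) and Cox6b2 (0.0031 without stretch replicate 4); over all libraries left out they lay between -0.0225 and 0.0373, -0.110 and 0.0186, -0.0140 and 0.0030, and -0.0383 and 0.0031 percentage points for these 4 genes. Calls of Atp5s (adjusted p = 0.0516), Atp5f1 (0.0629), Atp5g3 (0.0813), Cox7a2 (0.0587), Ndufaf3 (0.15), Ndufb11 (0.149), Cox17 (0.0611), Foxred1 (0.146) and Lyrm7 (0.103) were lost with the block. With library sizes alone those of Atp5f1 (0.285), Atp5g3 (0.654), Cox17 (0.116), Cox5a (0.296), Cox7a2 (0.253), Cyc1 (0.214), Gabpb1 (0.102), Mdh2 (0.111), Ndufab1 (0.15), Ndufb6 (0.458), Sco1 (0.0516), Tmem186 (0.0635), Uqcc (0.0657) and Uqcrq (0.24) were lost. Atp5g3 (0.0659) and Ndufb6 (0.0654) lost theirs without a filter, Ndufb6 with limma-voom (0.0555), and Ndufb11 with RLE factors (0.0577) and DESeq2 (0.0633). Except for the scaling itself, the cause of these changes was not tested. With a median SE of 0.0516 for subunits, differences of a few percent are near the limit of this depth and number of libraries.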
